A study of Rattus norvegicus with 12 samples.

Results

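Antioxidant defence genes were described here as 33 genes: superoxide dismutases and catalase, glutathione peroxidases, the enzymes that make and use glutathione, peroxiredoxins, thioredoxins, metallothioneins, and the sensor pair Keap1 and Nrf2 with target enzymes. They were chosen by name, and each was found on the array through the RefSeq accession of its probes. All 33 had a probe, 37 probes in all, among 26903 genes measured. Of these, 32 could be tested among 20849 genes, because Gclm was too dim. All 32 were well above background on all 12 arrays, so no member passed the filter through a single group.

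Total RNA of L6 dorsal root ganglia, which hold the cell bodies of sensory neurons together with glia, vessels and immune cells, was measured in male rats of the strain Fischer 344. The group young_AL was 6 months old with free access to normal food, and old_AL was 25 to 28 months old with the same food. The group old_CR, also 25 to 28 months old, had been fed on 3 days a week since 6 weeks of age, which gave about 40% restriction. Each group had 4 rats and 4 arrays. The study asked which oxidative and inflammatory genes differ with age and whether restriction prevents the difference. A ganglion is a mixture of cells, so a lower signal from fewer cells of a type and from less RNA per cell cannot be told apart.

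Cells remove superoxide in steps. Superoxide dismutases turn it into hydrogen peroxide, and catalase, glutathione peroxidases and peroxiredoxins reduce the peroxide, drawing electrons from glutathione or thioredoxin. Many of these enzymes share one regulator, Nrf2 (Nfe2l2), which Keap1 holds at a low level until oxidants or electrophiles modify it; Nrf2 then binds antioxidant response elements in the promoters of its targets. Sensory neurons have long axons with many mitochondria and are known to be vulnerable to oxidative damage.

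Some features of the arrays touch all genes. One array, old_AL 1, differed in quality: its 75th percentile reached 7662, where the other 11 had 2634 to 3110, and it carried 4369 unevenly lit spots, where they had 1 to 215. Its median correlation with all other arrays was 0.929, and the same median for each of the other 11 was 0.971 to 0.994. Differences are therefore given on 11 arrays without it (4 young_AL, 3 old_AL, 4 old_CR), and counts of members and pathway genes that passed are given on 12 arrays too. Counts of groups that do not overlap, of intervals and of markers are on 11 arrays. Of these 11, old_AL 4 had the lowest median correlation, 0.971. Its 75th percentile was 34.5 times its 25th, where the others kept had ratios of 60.5 to 72.8. Without old_AL 4 the median age difference over all genes went from 0.035 to 0.0077. Calls over all genes for old_CR against old_AL then went from 222 to 2. On 12 arrays no gene of any marker list passed by limma, and the members' differences turned their sign for 14 of 32 in old_AL minus young_AL and for 13 of 32 in old_CR minus old_AL. The young_AL arrays lay in row 2 of slide 1, and on slide 2 old_AL lay in row 1 and old_CR in row 2. In old_AL minus young_AL the effect of age cannot be told apart from those of slide and row. Diet in old_CR minus old_AL cannot be told apart from row, and old_CR minus young_AL cannot be told apart from slide. The labels mark the arrays of a group as separate replicates, and the design text gives 4 rats a group; no technical repeat is named. Markers of the labelled tissue were present: 16 of 18 sensory neuron markers could be tested, Pou4f1 and Rbfox3 having no matched probe, and their median difference was -0.0039 with age, 0.017 with diet and -0.042 between old_CR and young_AL. Of these 16, 3 passed lower with age, the neurofilaments Nefl and Nefh and the transcription factor Isl1, named after their values were seen; 1 passed higher with diet and 2 passed lower in old_CR than in young_AL. At an unadjusted p under 0.05 on 12 arrays there were 4, 2 and 1. Of all 20849 genes there were 1383, 1222 and 566 in the same order, the background for such counts on 12 arrays below. Markers of fat cells differed between the age groups, with 1 of 5 tested passing higher in old_AL and 2 in old_CR than in young_AL, at medians of 1.44 and 1.08; on 12 arrays 2 and 2 had an unadjusted p under 0.05. A signal below is in units of its array's 75th percentile, and a difference is in log2 units with its standard error from limma.

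Most antioxidant genes differed little between the 3 groups. With age, Hmox1, the inducible haem oxygenase, was the 1 member of 32 that passed an adjusted p of 0.05, and it was higher in old_AL. Between old_CR and old_AL no member passed. Between old_CR and young_AL, Gpx7, a glutathione peroxidase of the endoplasmic reticulum, was the 1 member that passed, and it was lower in old_CR. The median difference over the 32 members was 0.033 for old_AL minus young_AL, -0.0057 for old_CR minus old_AL and 0.023 for old_CR minus young_AL. Over all genes tested those medians were 0.035, -0.054 and -0.017.

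**Figure D1:**
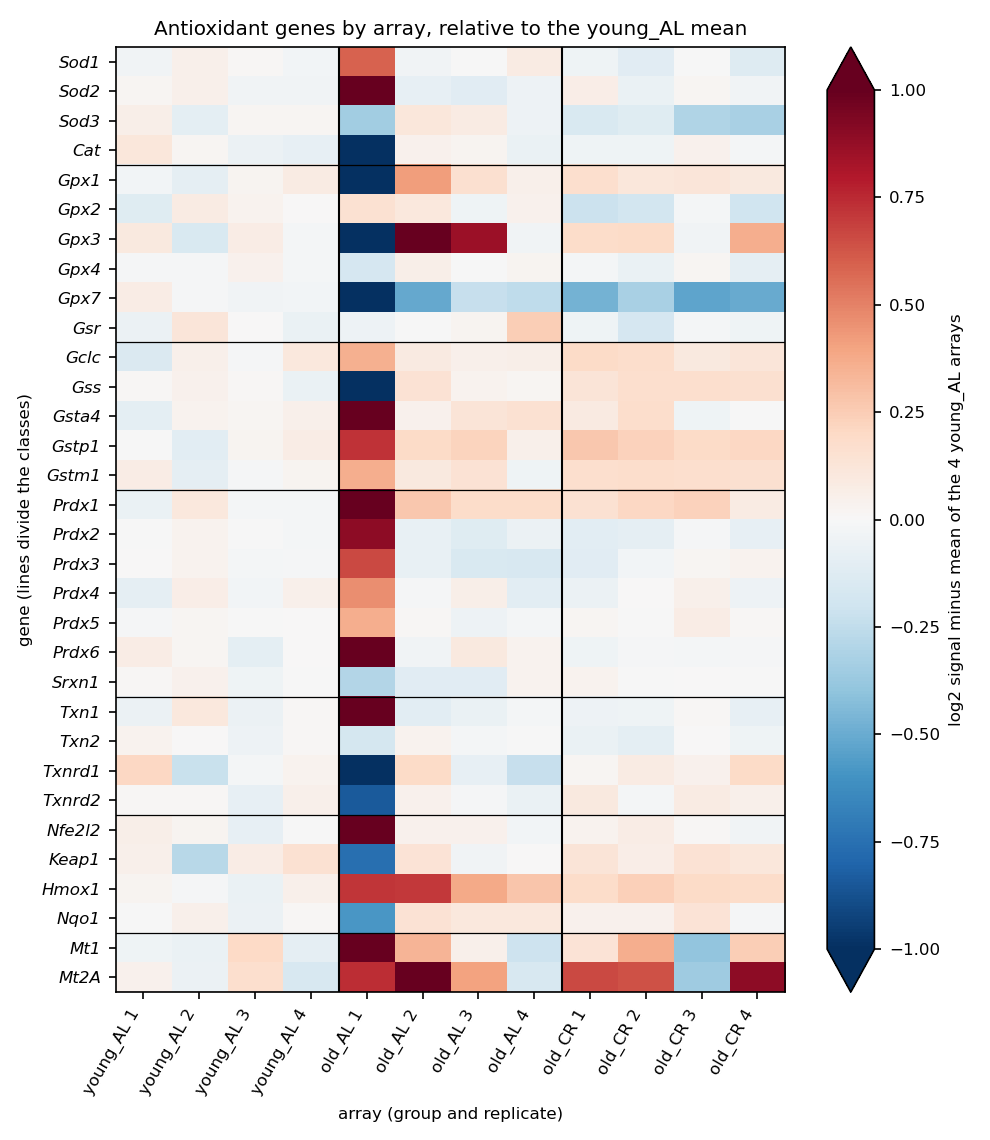
Each row is 1 of the 32 measurable antioxidant genes and each column 1 array. Colour gives log2 signal minus the mean of the 4 young_AL arrays, with values past 1 or -1 in the end colours, and lines divide gene classes. The old_AL 1 column differs from all others over most rows, whereas rows of Hmox1, Gpx7, Gpx3 and Mt2A stand out on the remaining 11.

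These counts are set here against the background of all genes tested. With age, 3.24% of all genes tested passed on 11 arrays (676 of 20849) and 0.0191% on 12 arrays (4 genes), and 0 of the 32 members passed on 12. Groups did not overlap for 7 members (3 higher, 4 lower in old_AL), where 19.6% of all genes did not overlap. For old_CR against old_AL, 1.06% of all genes passed on 11 arrays and 0.00478% on 12, with 0 members in both by limma. There 4 members had an unadjusted p under 0.05 on 11 arrays and 2 on 12. Of all 20849 genes, 5503 had such a p on 11 arrays and 1222 on 12. Groups did not overlap for 5 members (2 higher, 3 lower in old_CR), with 23.5% of all genes as background. For old_CR against young_AL, 2.41% passed on 11 arrays and 0.0191% on 12, with 1 and 0 members, and 7 members did not overlap (5 higher, 2 lower in old_CR) against 15.8% of all genes. The members' shares that passed or did not overlap were near the background in each comparison.

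The intervals show how small a difference these arrays could still hold under the scaling used. For 28 of 32 members the 95% interval of old_AL minus young_AL lay within 0.5 log2 units of 0, and for 22 it lay within 0.25. The same held for 30 and 21 members in old_CR minus old_AL, and for 29 and 18 in old_CR minus young_AL. Of all 20849 genes, 14681, 14366 and 15512 lay within 0.5 in the 3 comparisons, and 9106, 8875 and 9842 within 0.25. The median size of a member's difference, sign aside, was 0.064, 0.074 and 0.071 in the 3 comparisons, against 0.105, 0.114 and 0.087 over all genes. The pooled SD between rats was also lower, with a median of 0.0657 over members and 0.102 over all genes tested. The 32 members were well above background on every array, whereas a gene was tested if it was so on at least 4. Members and all genes were thus not matched for brightness in these intervals, sizes and SDs.

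**Figure D2:**
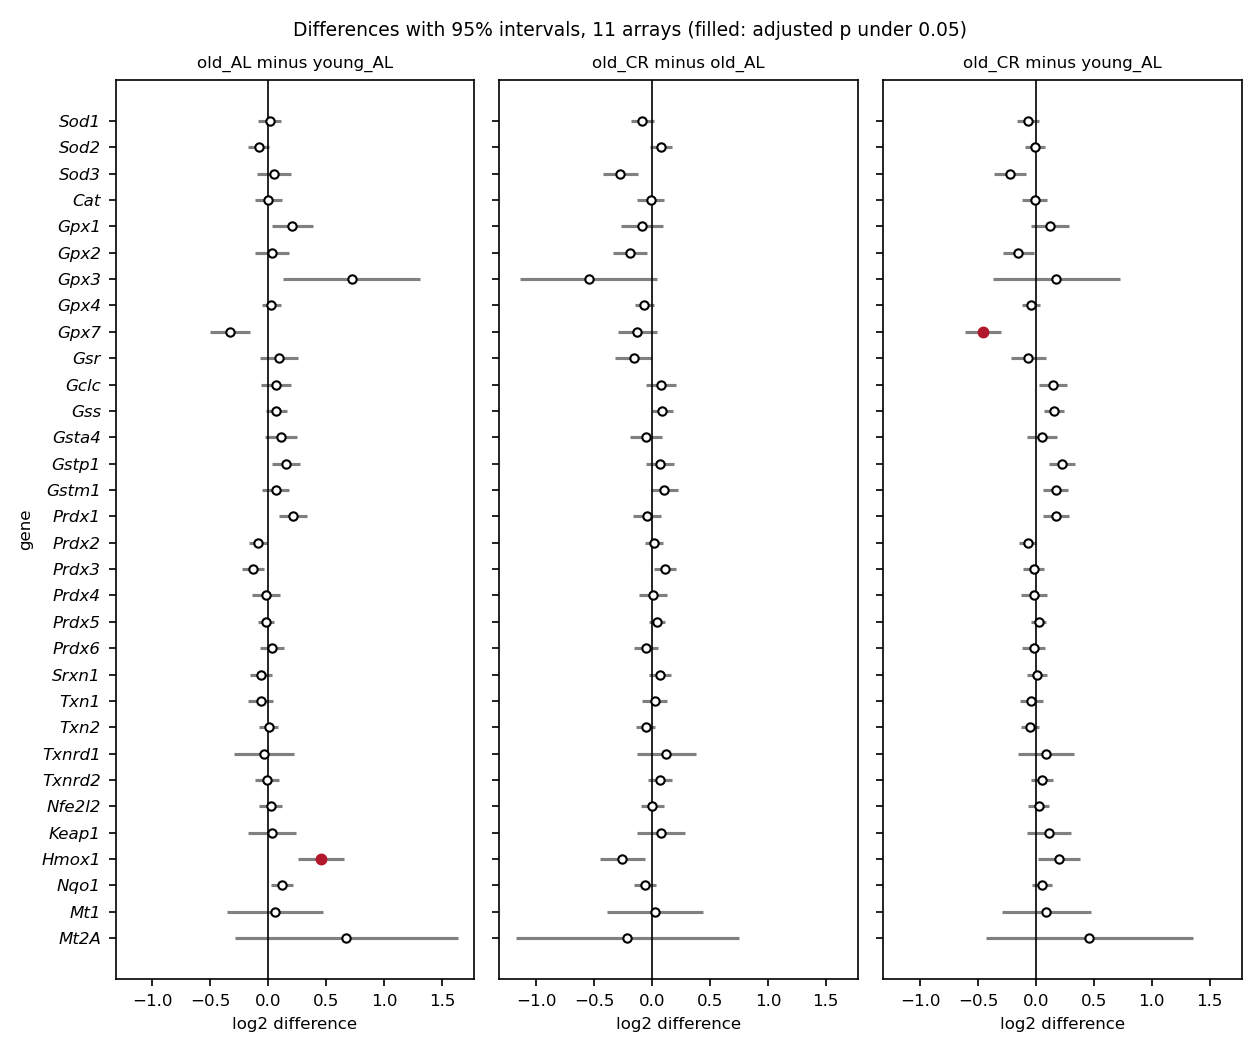
Points are log2 differences of the 32 genes in the 3 comparisons on 11 arrays, and bars are 95% intervals of the limma fit. Filled points passed an adjusted p of 0.05: Hmox1 in old_AL minus young_AL and Gpx7 in old_CR minus young_AL. Wide bars belong to Gpx3, Mt1, Mt2A and Txnrd1.

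Sequences are shown for 4 members whose levels are described below and whose promoters hold letters of a known response element. RefSeq promoters of the assembly GRCr8, from 250 bases before the start of the gene to 50 after, were matched for 29 of the 33 members; Hmox1, Prdx6, Sod3 and Gsr had no entry in the table used. The first element searched was the antioxidant response element core, TGACNNNGC, on both strands. It was found for 11 of the 29 members (37.9%), namely Sod2, Gpx2, Gclm, Gstp1, Prdx1, Prdx4, Prdx5, Txnrd1, Nfe2l2, Mt1 and Mt2A, and in 12.1% of all 33469 promoters of this length. Counted by gene, with a gene of several listed starts such as Txnrd1 counted once if any held it, the share was 13.1% of 27457 genes. In capitals below is that match in Gstp1, a glutathione transferase (chr1:210769656-210769955, minus strand, match starting 61 bases before the gene's start), and in Prdx1, a cytosolic peroxiredoxin (chr5:135383656-135383955, plus strand, match starting 135 bases before the start, in the opposite orientation). Both matches contain TGACTCA or its reverse complement, the letters that AP-1 factors also bind.
Gstp1: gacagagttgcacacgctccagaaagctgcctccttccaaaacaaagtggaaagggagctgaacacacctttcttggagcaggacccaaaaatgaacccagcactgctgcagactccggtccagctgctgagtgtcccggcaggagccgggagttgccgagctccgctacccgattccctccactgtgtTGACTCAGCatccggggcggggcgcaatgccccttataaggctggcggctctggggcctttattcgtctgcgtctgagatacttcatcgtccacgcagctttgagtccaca
Prdx1: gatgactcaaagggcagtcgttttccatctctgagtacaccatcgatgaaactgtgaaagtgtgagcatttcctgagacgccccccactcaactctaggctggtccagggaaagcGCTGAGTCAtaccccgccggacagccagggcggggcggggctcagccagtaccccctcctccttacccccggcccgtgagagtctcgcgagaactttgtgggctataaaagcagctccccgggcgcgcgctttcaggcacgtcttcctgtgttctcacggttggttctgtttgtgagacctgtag

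The second element was the core of the metal response element, TGCACNC or TGCGCNC on both strands, which the zinc sensor Mtf1 binds. It was found for 7 of the 29 members (24.1%), in 24.2% of all promoters and for 26.3% of all genes, so a match is common. At least 4 matches were found in 0.439% of all promoters. Mt1 held 6 (chr19:10832926-10833225, minus strand, between 176 and 55 bases before the start) and Mt2A held 4 (chr19:10838659-10838958, minus strand, between 220 and 55 bases before the start). These are the metallothioneins, small proteins that bind zinc and copper and take up radicals, and the capitals mark the metal response element matches. None of these matches overlaps the antioxidant element match of the same promoter.
Mt1: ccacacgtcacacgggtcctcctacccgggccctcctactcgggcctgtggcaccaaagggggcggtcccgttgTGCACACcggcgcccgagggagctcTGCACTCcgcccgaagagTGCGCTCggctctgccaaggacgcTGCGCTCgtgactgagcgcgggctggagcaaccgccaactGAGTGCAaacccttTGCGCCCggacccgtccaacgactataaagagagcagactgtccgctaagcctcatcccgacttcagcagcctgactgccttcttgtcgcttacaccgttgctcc
Mt2A: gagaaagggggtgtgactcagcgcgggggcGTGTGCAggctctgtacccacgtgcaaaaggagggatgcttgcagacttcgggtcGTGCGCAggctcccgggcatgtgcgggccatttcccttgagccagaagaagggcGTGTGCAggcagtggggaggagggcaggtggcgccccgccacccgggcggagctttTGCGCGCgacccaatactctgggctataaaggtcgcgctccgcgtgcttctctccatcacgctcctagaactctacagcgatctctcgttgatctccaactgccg

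Superoxide and peroxide removal was represented by Sod1 in the cytosol, Sod2 in mitochondria, Sod3 outside the cell and catalase in peroxisomes. None of the 4 passed in any comparison. Catalase signal was 0.191 to 0.218 in young_AL, 0.193 to 0.208 in the 3 old_AL arrays and 0.196 to 0.208 in old_CR, so the groups overlapped throughout. Sod1 signal was 41.3 to 44.0, 41.3 to 44.8 and 38.8 to 42.3 in the same order, with overlap of all 3.

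Sod3, the extracellular dismutase, had signals of 7.25, 6.50, 7.05 and 7.04 in young_AL, 7.54, 7.38 and 6.71 in old_AL 2 to 4, and 6.25, 6.39, 5.66 and 5.55 in old_CR. All 4 old_CR rats were below these rats of both other groups, and old_AL overlapped young_AL. On old_AL 1, the array left out, Sod3 was 5.46, below all old_CR rats, and on 12 arrays old_CR minus old_AL was -0.17 with an adjusted p of 0.644. The difference old_CR minus old_AL was -0.27 ± 0.07 (adjusted p = 0.0665) and old_CR minus young_AL was -0.22 ± 0.06 (adjusted p = 0.0912), so neither passed. The satellite glia markers were lower in the same rats: their median, set against the young_AL mean, was -0.352 to -0.168 in old_CR, -0.148 to -0.049 in old_AL 2 to 4 and -0.050 to 0.048 in young_AL. Medians of myelinating Schwann cell markers, at -0.549 to -0.106, and of endothelial markers, at -0.225 to -0.045, were negative in old_CR too, and both overlapped old_AL 2 to 4. Those of macrophage, neutrophil, erythroid and fat cell markers were positive in all old_CR rats, and those of sensory neuron and fibroblast markers went both ways. The part of any of these cells in the Sod3 values was not tested.

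Among the glutathione peroxidases, which reduce peroxides with glutathione (Gpx7 works largely with protein thiols), Gpx7 was the 1 that passed a test. Its signals were 0.516, 0.485, 0.478 and 0.479 in young_AL, 0.343, 0.417 and 0.411 in old_AL 2 to 4 and 0.352, 0.391, 0.340 and 0.344 in old_CR. Every old rat was below every young rat, and both old groups overlapped each other. The difference old_CR minus young_AL was -0.46 ± 0.07, a level 1.37-fold lower, with a 95% interval of -0.61 to -0.30 and an adjusted p of 0.0173. The difference old_AL minus young_AL was -0.33 ± 0.08 with an adjusted p of 0.0505, and passed under 6 of the 12 alternatives other than leaving out arrays. Old_CR minus old_AL was -0.13 ± 0.08. On old_AL 1 the signal was 0.242. On all 12 arrays old_CR minus young_AL had an adjusted p of 1. Without young_AL 1, young_AL 3, old_CR 1 or old_CR 4, each left out alone, that adjusted p was 0.0525, 0.0585, 0.0602 and 0.0573.

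Some glial markers were also lower in old_CR than in young_AL. Of 10 satellite glia markers 4 passed lower and none passed higher, with 8 differences negative and 2 positive. Of 9 myelinating Schwann cell markers 2 passed lower and none higher, with 7 negative and 2 positive. On 12 arrays 4 and 2 had an unadjusted p under 0.05. The summed signal of the satellite glia markers was 96.7 to 106 in young_AL, 101 to 108 in old_AL 2 to 4, where Gpx7 was also below young_AL, and 90.0 to 98.5 in old_CR. That of the Schwann cell markers was 149 to 168, 126 to 152 and 126 to 144. Of 8 fibroblast markers 1, the collagen Col1a1, passed lower in old_CR than in young_AL, but 5 differences were positive and 3, those of collagens, negative, with a median of 0.010. The summed fibroblast signal was 47.8 to 60.3 in young_AL, 41.8 to 54.8 in old_AL 2 to 4 and 35.1 to 47.8 in old_CR, and 2 of the markers had an unadjusted p under 0.05 on 12 arrays. No marker that could be tested in these lists was at 0, and their part in the Gpx7 difference was not tested.

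Gpx3, the secreted glutathione peroxidase of plasma, was uneven among the old rats. Its signals were 0.0737, 0.0619, 0.0726 and 0.0678 in young_AL, 0.176, 0.124 and 0.0670 in old_AL 2 to 4, and 0.0780, 0.0785, 0.0673 and 0.0887 in old_CR. Both old_AL 2 and old_AL 3 were above all other rats, and old_AL 4 lay among the young. The difference old_AL minus young_AL was 0.72 ± 0.26 with an adjusted p of 0.15, without old_AL 2 it was 0.41 with an adjusted p of 0.272, and without old_AL 4 it was 1.10 with an adjusted p of 0.0207. The latter array's 75th percentile was 34.5 times its 25th, where the other 10 had ratios of 60.5 to 72.8. On old_AL 1 the Gpx3 signal was 0.0324, below all other rats.

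The remaining members of that class did not pass in any comparison. Gpx1, the abundant cytosolic form, was 4.68 to 5.26 in young_AL, 5.14 to 6.64 in old_AL 2 to 4 and 5.30 to 5.58 in old_CR, with old_AL minus young_AL at 0.21 ± 0.08 (adjusted p = 0.16). Without old_AL 2 that difference was 0.11, and on 12 arrays it turned to -0.31. Gpx4, which reduces lipid peroxides in membranes and protects against ferroptosis, was 70.3 to 73.2, 71.1 to 73.9 and 66.7 to 72.0. Its second probe, read only against itself, gave differences between 0.0065 and 0.038 in the 3 comparisons, and the chosen probe gave -0.067 to 0.027. The 2 probes of Gpx2 gave old_CR minus old_AL differences of -0.19 and -0.16, with adjusted p of 0.121 and 0.156 over all probes. Gsr, the reductase that regenerates glutathione, was lower in all 4 old_CR rats than in old_AL 2 to 4, at -0.16 ± 0.07 with an adjusted p of 0.197.

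The enzymes that make and use glutathione had positive differences for old_CR minus young_AL in all 5 tested members, with a median of 0.157, though none passed. All 5 were positive for old_AL minus young_AL too, at a median of 0.069. For old_CR minus old_AL 4 were positive and 1 negative, at a median of 0.079, and none passed in either comparison. Gss, glutathione synthetase, was 0.701, 0.717, 0.702 and 0.666 in young_AL, 0.770, 0.715 and 0.708 in old_AL 2 to 4, and 0.763, 0.780, 0.783 and 0.780 in old_CR. All 4 old_CR rats were above all young rats, and the difference was 0.16 ± 0.04 (adjusted p = 0.0644). Gstp1 was 3.94, 3.67, 4.03 and 4.16 in young_AL, 4.51, 4.59 and 4.10 in old_AL 2 to 4, and 4.76, 4.62, 4.52 and 4.55 in old_CR. Its old_CR rats were again all above the young ones, at 0.22 ± 0.05 (adjusted p = 0.0522). Gstm1, another transferase, had the same arrangement at 0.17 ± 0.05 (adjusted p = 0.0972). Gclc, the catalytic subunit of the enzyme that sets the pace of glutathione synthesis, was 0.15 ± 0.05 higher in mean with overlap (adjusted p = 0.187), and Gsta4, which clears the lipid aldehyde hydroxynonenal, was at 0.05.

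Gclm, the regulatory subunit that partners Gclc, was well above background on 2 of the 11 arrays, young_AL 2 and old_CR 4, at 0.00634 and 0.00693. It was not well above background on any of old_AL 2 to 4, and no difference is given for it.

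**Figure D3:**
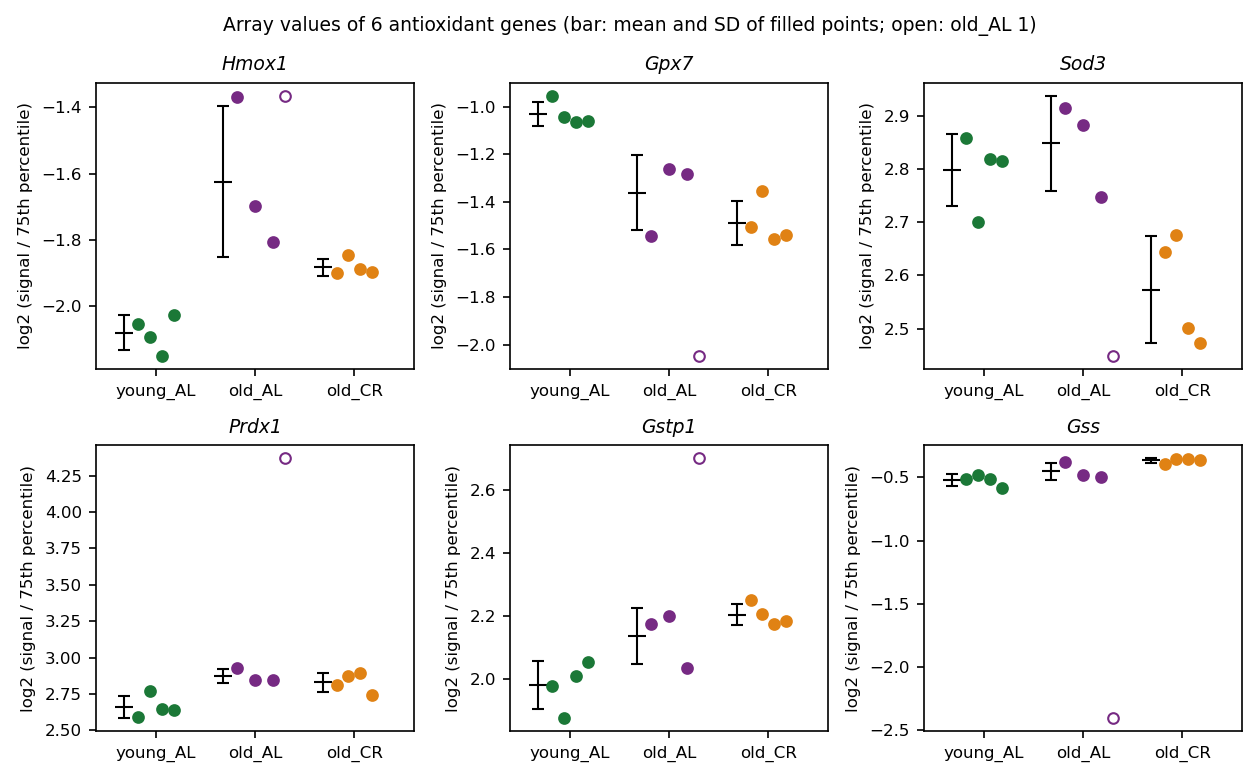
Array values of 6 antioxidant genes as log2 of signal over the array's 75th percentile, by group. Filled points are rats used in the differences, bars their mean and SD, and open points old_AL 1. Among filled points Hmox1 is highest in old_AL, Gpx7 is lower in both old groups, Sod3 is lowest in old_CR, and Gstp1 and Gss are higher in old_CR than in young_AL.

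Peroxiredoxins reduce peroxide with a reactive cysteine, and sulfiredoxin (Srxn1) repairs them when that cysteine is over-oxidised. Prdx1 had signals of 6.02, 6.81, 6.25 and 6.22 in young_AL, 7.62, 7.19 and 7.18 in old_AL 2 to 4, and 7.04, 7.31, 7.42 and 6.71 in old_CR. The old_AL rats were all above the young ones, and old_CR reached into the young range through 1 rat. The difference old_AL minus young_AL was 0.21 ± 0.05 (adjusted p = 0.0623), and on 12 arrays 0.59, with the old_AL 1 signal at 20.7.

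The other peroxiredoxins lay within narrower limits. Prdx3, the mitochondrial form, was lower in old_AL 2 to 4 than in young_AL without overlap, at -0.13 ± 0.04 (adjusted p = 0.119), and so was Prdx2, a cytosolic form abundant in neurons and red cells, at -0.08 ± 0.03 (adjusted p = 0.186). With old_AL 1 put back, at 4.42 and 50.3, both turned, to 0.07 and 0.16. Prdx5 was among the steadiest genes on the array, since 0.528% of genes had a smaller SD between rats: it was 17.5 to 17.8 in young_AL, 17.0 to 17.8 in old_AL 2 to 4 and 17.6 to 18.5 in old_CR. Differences of Prdx4 of the endoplasmic reticulum, of Prdx6 and of Srxn1 lay between -0.063 and 0.071 in all 3 comparisons.

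The thioredoxin genes, which hand electrons to the peroxiredoxins, did not pass. Differences of Txn1, its mitochondrial counterpart Txn2, and the reductases Txnrd1 and Txnrd2 ran from -0.064 to 0.12. The 2 probes of Txnrd1 differed in sign for old_CR minus young_AL, at 0.08 ± 0.11 and -0.08 ± 0.06, and neither passed.

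The regulator Nfe2l2 itself was level. Its signal was 1.34 to 1.48 in young_AL, 1.39 to 1.46 in old_AL 2 to 4 and 1.39 to 1.49 in old_CR, with no difference above 0.022 and overlap of all groups. Keap1, its repressor, differed by 0.03, 0.08 and 0.11. Nqo1, a quinone reductase and a standard Nrf2 target, was 0.473 to 0.510 in young_AL and 0.530 to 0.544 in old_AL 2 to 4, without overlap, at 0.12 ± 0.04 (adjusted p = 0.148). With old_AL 1, at 0.329, the difference turned to -0.06.

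Hmox1 breaks down haem to biliverdin, carbon monoxide and iron, is induced by Nrf2 and by haem, and is strongly expressed in macrophages that take up red cells. Its signals were 0.241, 0.235, 0.225 and 0.245 in young_AL, 0.387, 0.308 and 0.286 in old_AL 2 to 4, and 0.268, 0.278, 0.270 and 0.269 in old_CR. All old_AL rats were highest, all young rats lowest, and old_CR lay between them without overlap. Old_AL minus young_AL was 0.46 ± 0.09, a 1.37-fold higher level (95% interval 0.26 to 0.65, adjusted p = 0.0336). Old_CR minus old_AL was -0.26 ± 0.09 (adjusted p = 0.117) and old_CR minus young_AL 0.20 ± 0.08 (adjusted p = 0.233). These comparisons share arrays, so a high old_AL group enters the first and the second with opposite signs.

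The Hmox1 call was close to its threshold. On 12 arrays the difference was 0.52 with an adjusted p of 0.337, and with young_AL and old_AL fitted alone the adjusted p was 0.143. Over the 11 fits that each left out 1 more array it ran from 0.33 to 0.55, and it passed in 2 of them, without old_AL 2 and without old_AL 4. It did not pass without old_AL 3 or without any single array of young_AL or old_CR, at adjusted p of 0.0509 to 0.0916. It was positive in these 11 fits and in the 12 other alternatives.

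Macrophage markers were also higher in old_AL than in young_AL. Of 18 tested, 6 passed higher in old_AL than in young_AL and none passed lower, with 17 differences positive, 1 negative and a median of 0.88. On 12 arrays 8 had an unadjusted p under 0.05. By rat the list's median against the young_AL mean was -0.378 to 0.243 in young_AL, 1.201, 0.988 and 0.574 in old_AL 2 to 4, and 0.195 to 0.735 in old_CR. The list's summed signal was 25.9 to 40.1, 37.9 to 52.4 and 29.4 to 45.1. All tested macrophage markers had signal; Ms4a7 had no matched probe. The order of old_AL 2 to 4 was the same in the list and in Hmox1. In old_CR it was not: old_CR 1 was highest in the list, at 0.735, and old_CR 2 in Hmox1, at 0.278. In the list young_AL 4, at 0.243, was above old_CR 3 and 4, at 0.195 and 0.238, whereas in Hmox1 every young rat was below every old_CR rat. On old_AL 1, where Hmox1 was 0.388, the list's median was -0.119 and its summed signal 145. Erythroid markers were higher too, at 1.46, 0.33 and 0.48 in old_AL 2 to 4 against 0.093 to 0.246 in old_CR and -0.201 to 0.313 in young_AL, with 1 of 11 passing. Of the erythroid list, Gata1 and Epb42 were too dim to test. Of 6 tested neutrophil markers, 2 passed higher. On 12 arrays 3 erythroid and 2 neutrophil markers had an unadjusted p under 0.05. The part of these cells in the Hmox1 value was not tested.

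Among the members, Mt2A had the widest spread between rats of the same group and Mt1 the third widest, after Gpx3. Mt2A was 1.14, 1.06, 1.24 and 0.988 in young_AL, 3.78, 1.46 and 0.989 in old_AL 2 to 4, and 1.74, 1.72, 0.864 and 2.05 in old_CR. Young rats were alike, while old_AL 4 lay at the low end of the young range, old_CR 3 below it, and the other old rats above it. The pooled SD was 0.609 log2 units, larger than that of 94.4% of genes tested, and old_AL minus young_AL was 0.67 ± 0.43, which did not pass (adjusted p = 0.370). It was 0.12 without old_AL 2 and 1.09 without old_AL 4. Its second probe gave 0.924, 0.812, 0.928 and 0.818 in young_AL, 1.99, 1.06 and 0.915 in old_AL 2 to 4, and 1.15, 1.17, 0.733 and 1.24 in old_CR, so old_AL 2 was highest and old_CR 3 lowest on both. On old_AL 1 the probes gave 1.84 and 0.883.

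Mt1 followed the same rats in part. It was 2.77, 2.73, 3.29 and 2.68 in young_AL, 3.61, 2.96 and 2.47 in old_AL 2 to 4, and 3.14, 3.67, 2.17 and 3.39 in old_CR. Again old_AL 2 was above old_AL 3 and 4, and old_CR 3 was the lowest of all rats. Its pooled SD of 0.26 was larger than that of 79.2% of genes, and no comparison passed. The glucocorticoid and fasting genes, which share hormonal inducers with metallothioneins, had list medians of -0.122 to 0.148 in old_AL 2 to 4 and -0.047 to 0.178 in old_CR, with old_AL 2 and old_CR 4 at the tops and old_AL 4 and old_CR 3 at the bottoms. The metal response genes had list medians of -0.065, 0.035 and 0.072 in old_AL 2 to 4, with old_AL 2 the lowest, and of -0.157 to -0.034 in old_CR, with old_CR 3 the lowest. The part of either list in the spread was not tested.

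**Figure D4:**
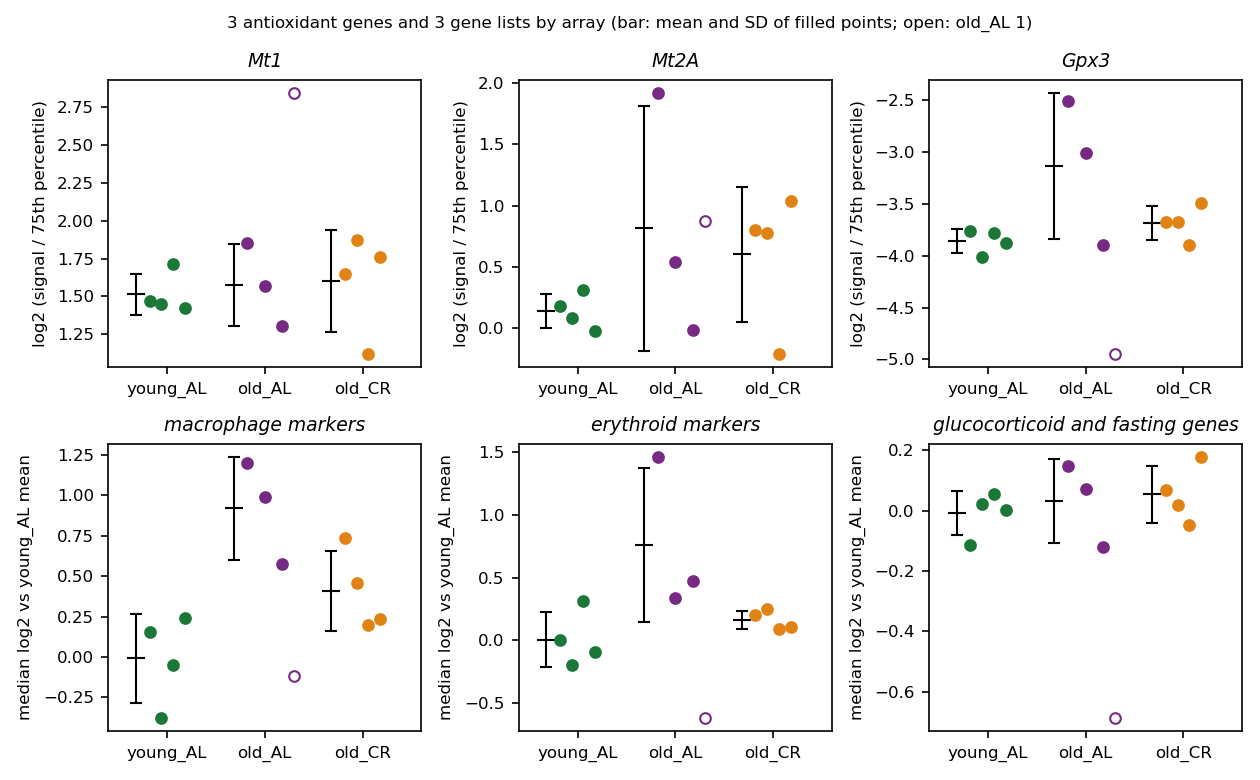
Top row: log2 of signal over the array's 75th percentile for Mt1, Mt2A and Gpx3; bottom row: median of 3 gene lists set against the young_AL mean, in log2 units. Filled points are the 11 rats used, bars their mean and SD, open points old_AL 1. Among filled old_AL points, old_AL 2 is the highest in all 6 panels, and old_CR 3 is the lowest old_CR rat for both metallothioneins. Lists not drawn went both ways. Of the old_AL rats used, old_AL 2 was the highest for endothelial markers, at 0.257. For neutrophil markers it was below old_AL 3, at 2.127 against 2.282. It was the lowest of these rats for fat cell markers, at 0.419, and for metal response genes, at -0.065.

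Other genes were read from a list of 118, of which 109 were tested: glutathione, thioredoxin and Nrf2 genes, 13 metal response genes, and 14 genes induced by glucocorticoids or fasting, which are not antioxidant genes. With age 4 of the 109 passed, 2 higher and 2 lower in old_AL, against 3.24% of all genes. Mgst2, a microsomal glutathione transferase, was 0.54 ± 0.12 higher (adjusted p = 0.0482) and Ftl1, the ferritin light chain, was 0.18 ± 0.04 higher (adjusted p = 0.0413). Nfe2l1, the Nrf2 relative that controls proteasome genes, was -0.24 ± 0.04 (adjusted p = 0.0256), and Me1, the malic enzyme that makes NADPH, was -0.21 ± 0.04 (adjusted p = 0.0278). The median over the 109 was 0.040.

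Between old_CR and old_AL 3 of the 109 passed, against 1.06% of all genes, and 2 of them, Angptl4 and Cdkn1a, are of the glucocorticoid and fasting list. Me1 was 0.21 ± 0.04 higher in old_CR (adjusted p = 0.045), Angptl4, a fasting-induced inhibitor of lipoprotein lipase, was -0.49 ± 0.08 (adjusted p = 0.0408), and Cdkn1a, the cell cycle inhibitor p21, was -0.35 ± 0.07 (adjusted p = 0.0459). Me1 changed sign in both comparisons when old_AL 1 was put back, to 0.22 and -0.22. The median over the 109 was 0.0014.

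Between old_CR and young_AL 6 passed, 4 higher and 2 lower, against 2.41% of all genes, and 2 of them, Klf15 and Angptl4, are of the glucocorticoid and fasting list. Klf15, a glucocorticoid and fasting regulator, was 0.69 ± 0.15 higher (adjusted p = 0.0478), Ephx1, a microsomal epoxide hydrolase, 0.35 ± 0.07 (adjusted p = 0.0355), Txnrd3, a thioredoxin and glutathione reductase, 0.32 ± 0.06 (adjusted p = 0.0392), and Akr7a3, an aldehyde reductase, 0.22 ± 0.05 (adjusted p = 0.0434). Nfe2l1 was -0.25 ± 0.04 (adjusted p = 0.0164) and Angptl4 -0.45 ± 0.08 (adjusted p = 0.0237). On 12 arrays 0 of the 109 passed in any of the 3 comparisons by limma, with 10, 7 and 6 at an unadjusted p under 0.05. Of all 20849 genes, 1383, 1222 and 566 had such a p.

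The directions of calls over all genes hung on the scaling. On 11 arrays 61.5% of the calls for old_AL against young_AL were higher, against 13.1% with median centring, 22.9% with quantile normalization and 86.3% with normexp background correction. For old_CR against old_AL 74.8% of the calls were lower, against 13.3%, 30.5% and 89.3% in the same order. Median centring moved the median difference of all genes with age from 0.035 to -0.067, and with diet from -0.054 to 0.047. Hmox1 kept its sign with age, and Gpx7 its sign in old_CR against young_AL, under each of these.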

How the data were processed

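The authors scanned 12 one-colour Agilent arrays of Cy3-labelled RNA (120 ng per sample) and made linear spot intensities with Agilent Feature Extraction 10.7, per the submitters' processing notes; the processed intensity was already background-subtracted, per the file headers, and the deposited series table held the same intensities. From these, log2 intensity minus each array's 75th percentile was computed, control and outlier spots were left out, and replicate spots were averaged. A gene was read from its brightest probe, kept where well above background on at least 4 arrays. Probe accessions were matched to RefSeq symbols (GRCr8, for names and promoters alone): 17998 of 30367 probes matched.

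Groups were compared with limma 3.58.1 in R 4.3.3 over all genes, with Benjamini-Hochberg adjustment and a threshold of 0.05; the tests were checked on simulated data. Old_AL 1 was left out for array quality. Members and lists were chosen with earlier results of these data known. All members are named, with pathway genes that passed in any comparison. Standard errors and intervals reflect the spread between arrays and their number alone. They do not include the choice of scaling, or the slide and the row that go with age and diet. Alternatives were other scalings, background correction, filters, probe rules, fits, and each array left out.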

Additional observations from a re-analysis of the deposited data

Results flagged for a closer look

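In 18 of the 96 sets of 4 arrays tested, 1 array lay farther from the others than the 95% critical value of Dixon's test allows, and 15 of these were on old_AL 1, the array left out of the differences. Chance alone flags about 5% of such sets, but the sets share arrays and are not independent, so the count was not tested against that share. By group, 2 of 32 sets were flagged in young_AL, 15 of 32 in old_AL and 1 of 32 in old_CR. The signals of old_AL 1 that stood above the rest of old_AL were Sod2 at 8.16, Gclc at 1.49, Gsta4 at 8.86, Prdx1 at 20.7, Prdx2 at 50.3, Prdx3 at 4.42, Prdx5 at 22.7, Prdx6 at 4.27, Txn1 at 67.9 and Nfe2l2 at 3.45. Those that stood below were Cat at 0.0418, Gpx1 at 1.37, Gss at 0.189, Txnrd2 at 0.153 and Nqo1 at 0.329. The other 3 were Gpx4 at 73.2 and Mt1 at 3.29 on young_AL 3, each the highest of its group, and Gss at 0.763 on old_CR 1, the lowest of its group.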

How the results depend on the processing

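Counts and medians below are in the order old_AL minus young_AL, old_CR minus old_AL, old_CR minus young_AL. On 11 arrays 1, 0 and 1 members, 4, 3 and 6 other pathway genes and 676, 222 and 503 of all genes passed. On all 12 arrays members called were 0, 0 and 0, pathway genes 0, 0 and 0, and all genes 4, 1 and 4, while the first 2 member medians became 0.089 and -0.092. With array weights members were 4, 3 and 6, pathway genes 14, 15 and 20, all genes 1515, 2195 and 1918, and the second member median -0.041. With the compared groups fitted alone members were 0, 0 and 4, pathway genes 0, 0 and 8, and all genes 27, 0 and 836. With an intensity trend they were 3, 1 and 3, then 8, 9 and 10, then 1089, 865 and 741. With median centring they were 6, 5 and 1, then 20, 16 and 3, then 2968, 2107 and 472, with the first 2 member medians at -0.068 and 0.096. With quantile normalization they were 3, 0 and 1, then 6, 4 and 3, then 1067, 393 and 381, with medians of 0.011 and 0.030. With normexp background correction they were 4, 3 and 2, then 19, 23 and 6, then 3838, 4732 and 459. With no filter on dim probes they were 1, 0 and 1, then 2, 0 and 2, then 542, 128 and 226. Where every array had to be well above background, members were 2, 0 and 2, and all genes for the second comparison 370. With a gene read from the mean over its probes, pathway genes for the second comparison were 1. The series table gave the values above. In the paired fit, with the replicate number as a block, members were 0, 0 and 0, pathway genes 0, 0 and 0, and all genes 20, 1 and 17; the numbers did not pair the arrays, since deviations of 10 same-numbered pairs correlated at -0.089 to 0.087.

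Leaving out each of the 11 arrays in turn gave 0 to 2, 0 and 0 to 3 members, 0 to 3, 0 to 5 and 0 to 11 pathway genes, and 70 to 402, 1 to 924 and 42 to 862 of all genes, with the first 2 member medians at 0.011 to 0.044 and -0.041 to 0.012. By gene, 2169 values kept their side of the threshold, 18 lost a call and 45 gained one. No value called in the main fit changed sign. Changes of sign among values not called there are not part of these counts. The causes were not tested. Signals carry no counting error of their own, and 3 or 4 rats a group limit what could be called.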
